A study of Mus musculus with 10 samples.

Results

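The 7 genes followed here, Msln, Muc1, Ceacam1, Epcam, Prom1, Cldn18 and Psca, encode cell surface proteins that have been pursued as targets of antibodies or engineered T cells in pancreatic cancer. They were chosen by name from the 51707 genes that had a transcript in the quantification, and each gene was followed as the sum of its transcripts and transcript by transcript. All 7 were found, with 52 transcripts between them, and all 7 passed the filter on low counts. A comparison list of other surface antigens studied as carcinoma targets held 36 genes, of which 35 were found and 33 passed the filter; Muc4 was not analysed here.

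Antigens of this kind are useful as targets where tumour cells carry them at a high level and vital tissues carry little or none, and several of them come in splice forms that differ in the part an antibody can reach. Claudins seal tight junctions, mucins form the glycosylated coat of the apical surface, and mesothelin and Psca are held in the membrane by a lipid anchor. Many of these proteins belong to gastric, ductal or mesothelial surfaces in the healthy body and are retained or gained in pancreatic ductal adenocarcinoma (PDAC).

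The study grew mouse PDAC from T6-LOH organoids, a line of the KPC model. The organoids were placed in the organ with stellate cells of the pancreas (PSCs), which can give rise to fibroblasts. Epithelial cells were then sorted by flow cytometry for RNA sequencing. In the 5 Egfr KO PSC libraries the co-transplanted stellate cells were PSC4 EGFR KO B4, which reads as 1 knockout clone, and in the 5 Egfr WT PSC libraries they were the PSC4 ROSA (egfr) control line. The Egfr deletion is thus a property of the stellate cells and not of the sequenced carcinoma cells, and the organoids were the same in both groups. Per the title, the hosts were immunodeficient NSG mice, although each library carries the strain label C57BL/6J. The labels state neither the age of the mice nor whether each library had its own mouse. The p-values thus reflect the spread among libraries, which may be technical. Libraries are numbered 1 to 5 within each group, and the numbers pair nothing across groups.

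The libraries held between 39534000 and 53816000 estimated counts assigned to genes. Carcinoma epithelial markers (7 of 7 found, among them Krt8, Krt18 and Krt19) summed to between 10955 and 19086 TPM (a count unit corrected for transcript length and depth) in Egfr KO PSC libraries and between 11926 and 13894 TPM in Egfr WT PSC libraries. Egfr itself stood at 22.3 ± 5.26 TPM in Egfr KO PSC libraries and 18.3 ± 6.48 TPM in Egfr WT PSC libraries (SD, n = 5 each), which checks nothing about the knockout, since the deletion lies in other cells. Fibroblast and stellate cell markers (8 of 8 found) summed to between 105 and 368 TPM in Egfr KO PSC libraries and between 117 and 279 TPM in Egfr WT PSC libraries. Col3a1 was the largest part, at means of 145 TPM in Egfr KO PSC and 126 TPM in Egfr WT PSC libraries. Col1a1 averaged 26.1 and 54.3 TPM in the same order (edgeR adjusted p = 0.321), Col1a2 5.77 and 11.2 TPM, and Dcn 5.79 and 11.8 TPM. Lum, Pdgfra and Pdpn were also lower on average in Egfr KO PSC libraries, while Col3a1 and Pdgfrb were higher. Acinar markers (7 of 7 found) summed to between 133 and 587 TPM in Egfr KO PSC libraries and between 206 and 524 TPM in Egfr WT PSC libraries. Fewer cells of a type and less RNA per cell cannot be told apart in such bulk libraries.

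All 7 antigens were present in every library, and their mean levels over the 10 libraries spanned Msln at 1057, Muc1 at 606, Prom1 at 538, Cldn18 at 474, Epcam at 211, Ceacam1 at 160.4 and Psca at 43.5 TPM. Msln stood at the 99.3rd percentile of the 17495 genes tested and Psca at the 81.0th. Msln exceeded Muc1 in 5 of 5 Egfr KO PSC libraries and 4 of 5 Egfr WT PSC libraries, and Ceacam1 exceeded Psca in all 5 of each. Prom1 exceeded Cldn18 in only 2 of 5 Egfr KO PSC libraries and 3 of 5 Egfr WT PSC libraries, so the order of these neighbours varied between libraries. Differences in level between antigens were not tested. Muc1 exceeded Prom1, and Cldn18 exceeded Epcam, in 4 of 5 Egfr KO PSC libraries and 5 of 5 Egfr WT PSC libraries. Epcam exceeded Ceacam1 in 4 of 5 libraries of each group.

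**Figure D1:**
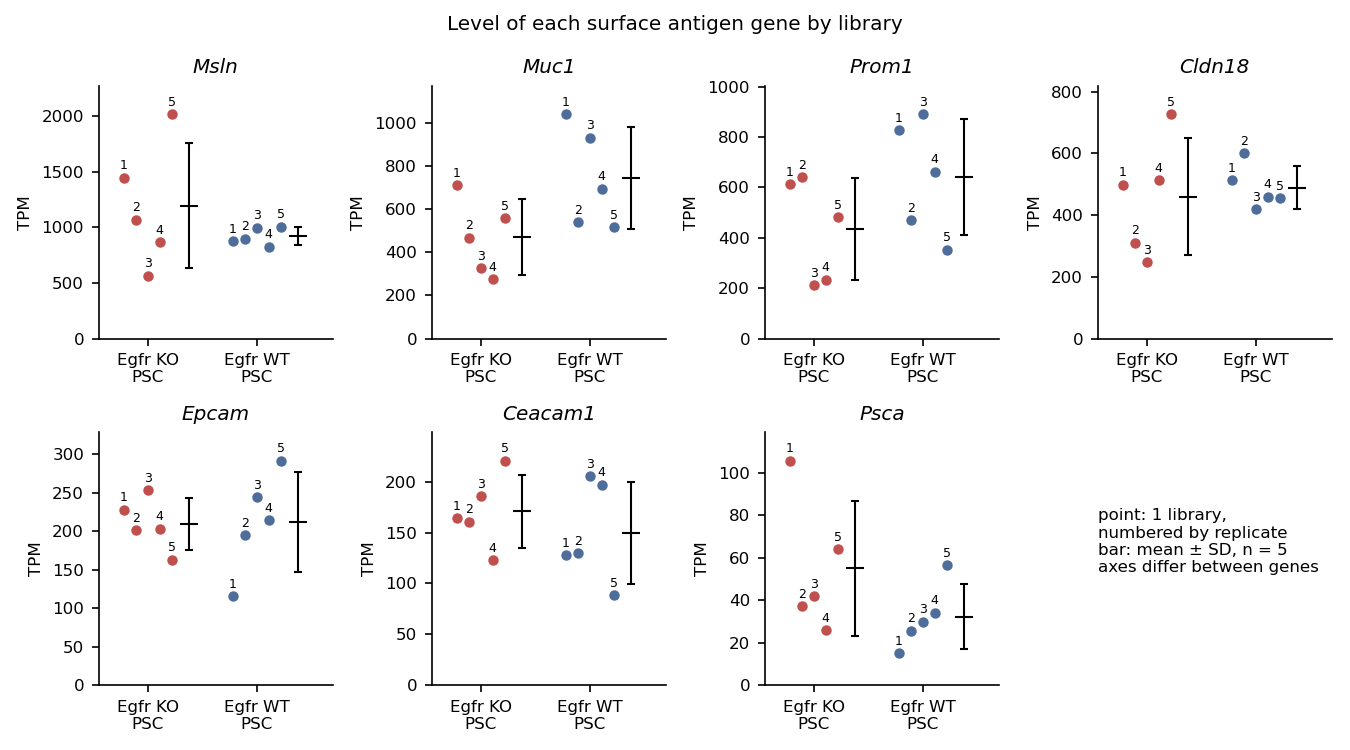
Level in TPM (vertical axis, a separate scale for each gene) of the 7 antigen genes in the 5 Egfr KO PSC libraries (left) and 5 Egfr WT PSC libraries (right), with points numbered by library and bars at the mean ± SD. The groups overlap for every gene, and Msln spans 565 to 2019 TPM in Egfr KO PSC libraries against 825 to 1007 TPM in Egfr WT PSC libraries.

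Whether mRNA levels of these antigens differed in libraries of tumours grown with Egfr KO stellate cells was tested with edgeR's quasi-likelihood F test over all 17495 genes. Protein at the cell surface was not measured here. None of the 7 antigens passed an adjusted p of 0.05, where 0 of the 17495 genes tested (0%) did. At an unadjusted p below 0.05, edgeR called 0 of the 7 antigens, against 1426 genes (8.15%). DESeq2 called 0 of the 7 at an adjusted p below 0.05, against 127 genes (0.726%), and limma voom called 0 of the 7, against 3 genes (0.0171%). The values of the 2 groups overlapped for all 7 antigens, whereas 266 genes (1.52%) showed no overlap in CPM (counts scaled to library size). In direction, 3 antigens had a positive log2 fold change and 4 a negative one, with 50.1% of all genes positive, and the median over the 7 was -0.0034, against 0.00041 over all genes. The confidence intervals reached -1.31 for Prom1 and 1.67 for Psca on the log2 scale, so the missed threshold does not show equal levels. The knockout was read from 1 clone of stellate cells.

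**Figure D2:**
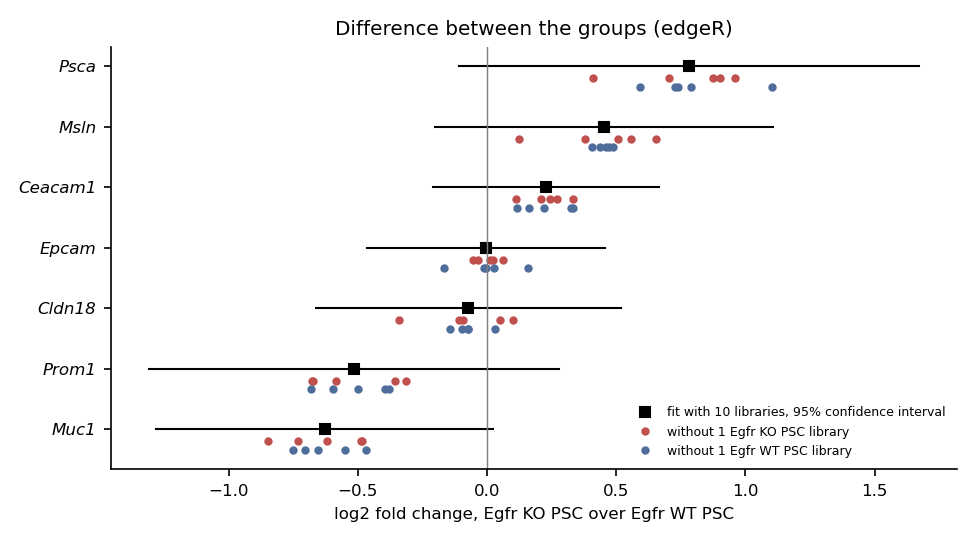
Log2 fold change of each antigen, Egfr KO PSC over Egfr WT PSC (horizontal axis), from edgeR with its 95% confidence interval (squares and lines, 10 libraries) and with each library left out in turn (points). Every interval includes 0, and the point estimates run from -0.63 for Muc1 to 0.78 for Psca.

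Cldn18 encodes claudin-18, a tight junction protein made from alternative first exons, at chr9:99689461-99717267 of GRCm38 (minus strand). The Cldn18.2 form is known from stomach and is the target of the antibody zolbetuximab, and the Cldn18.1 form is known from lung. The first coding exons of both forms are shown because they are what separates the target from its relative; they lie on the minus strand of chromosome 9 at chr9:99716996-99717215 (Cldn18.2) and chr9:99709729-99709948 (Cldn18.1) of GRCm38, the build of the annotation used here, while the files were quantified on GRCm39. Capitals mark the bases at which the exons differ.
Cldn18.2 first coding exon: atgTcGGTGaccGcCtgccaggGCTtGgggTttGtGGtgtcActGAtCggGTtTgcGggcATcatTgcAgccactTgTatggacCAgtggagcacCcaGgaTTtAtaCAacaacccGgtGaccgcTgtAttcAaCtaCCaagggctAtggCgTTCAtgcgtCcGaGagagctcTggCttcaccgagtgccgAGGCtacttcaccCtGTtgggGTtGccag
Cldn18.1 first coding exon: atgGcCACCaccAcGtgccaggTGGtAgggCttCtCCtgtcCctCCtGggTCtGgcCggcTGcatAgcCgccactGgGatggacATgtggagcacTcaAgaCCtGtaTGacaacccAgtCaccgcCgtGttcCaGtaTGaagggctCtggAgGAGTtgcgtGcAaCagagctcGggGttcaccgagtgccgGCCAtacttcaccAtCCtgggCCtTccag
The exons are 220 bases each and differ at 67 of them (69.5% identical), and the 572 coding bases that follow are identical in Cldn18-202 (Cldn18.2) and Cldn18-201 (Cldn18.1). Within the coding sequence, it is thus the first exon that tells these transcripts apart.

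The quantification assigned reads to both forms, and Cldn18.2 was the larger in every library. Nearly all of Cldn18.1 was Cldn18-201, at a mean of 161 TPM and 4172 bases long. Cldn18-202, at 178 TPM, is 1750 bases long, and each has 792 coding bases. Cldn18-204, the other Cldn18.1 transcript, averaged 1.39 TPM, against 133 TPM for Cldn18-203. Reads over the first exons were not counted apart. Whether Cldn18.2 mRNA gave reads of the longer noncoding part of Cldn18-201 was not tested. The Cldn18.2 form (Cldn18-202 and Cldn18-203) stood at 337, 211, 163, 341 and 473 TPM in Egfr KO PSC libraries 1 to 5, against 341, 405, 274, 298 and 274 TPM in Egfr WT PSC libraries 1 to 5. The Cldn18.1 form (Cldn18-201 and Cldn18-204) stood at 161, 99.5, 83.7, 172 and 254 TPM in Egfr KO PSC libraries, against 172, 195, 144, 162 and 181 TPM in Egfr WT PSC libraries. In both forms, Egfr KO PSC libraries 2 and 3 were the lowest and library 5 the highest of all 10. The share of Cldn18.2 in Cldn18 nevertheless moved little, at 67.7%, 67.9%, 66.1%, 66.4% and 65.1% in Egfr KO PSC libraries and 66.5%, 67.5%, 65.6%, 64.8% and 60.3% in Egfr WT PSC libraries. Its means were 66.6 ± 1.18% in Egfr KO PSC libraries and 64.9 ± 2.79% in Egfr WT PSC libraries (SD, n = 5 each), a difference of 1.74 percentage points (exact permutation test, two-sided, p = 0.246, adjusted p = 0.738 over the 6 shares tested). The smallest p that this test can give with 5 against 5 libraries is 0.00794. The difference in share was 0.574 percentage points without Egfr WT PSC library 5, which had the lowest share.

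Summed over its transcripts, Cldn18 stood at 498, 310.4, 247, 513 and 727 TPM in Egfr KO PSC libraries, against 512, 600.2, 418, 459.7 and 454 TPM in Egfr WT PSC libraries. The Egfr WT PSC values lay inside the range of the Egfr KO PSC values. EdgeR gave Cldn18 a log2 fold change of -0.07 (SE 0.27, 95% confidence interval -0.66 to 0.52, edgeR adjusted p = 0.964). It turned positive without Egfr KO PSC library 2 (0.05) or 3 (0.10) and without Egfr WT PSC library 2 (0.03). A shorter C-terminus, carried by Cldn18-203 and Cldn18-204, made up 27.5 ± 2.89% of Cldn18 TPM in Egfr KO PSC libraries and 28.3 ± 2.01% in Egfr WT PSC libraries.

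Markers of stomach and lung, the healthy tissues known for these forms, were read beside Cldn18. Alveolar markers (6 of 6 found) summed to between 2.36 and 4.82 TPM in Egfr KO PSC libraries and between 2.62 and 4.13 TPM in Egfr WT PSC libraries, with the surfactant genes Sftpc and Sftpa1 each at 0 in all 5 Egfr KO PSC libraries and in 4 of 5 Egfr WT PSC libraries, and Sftpb at no more than 0.070 TPM in any library. Most of the alveolar sum came from Ager, at 1.78 to 2.37 TPM in Egfr KO PSC libraries and 1.34 to 2.30 TPM in Egfr WT PSC libraries, and Hopx, at 0.516 to 1.74 TPM in Egfr KO PSC libraries and 0.659 to 1.73 TPM in Egfr WT PSC libraries. Gastric markers (7 of 8 found) summed to between 232 and 814 TPM in Egfr KO PSC libraries and between 552 and 1086 TPM in Egfr WT PSC libraries. Most of that sum came from the trefoil factor genes Tff1 and Tff2. The mucin gene Muc5ac reached at most 0.793 TPM and the chief cell gene Pgc at most 1.501 TPM. Which cells gave these transcripts was not tested. The gastrokine genes of the gastric surface epithelium were also detected, with Gkn1 at 1.60 to 36.7 TPM in Egfr KO PSC libraries and 9.13 to 20.2 TPM in Egfr WT PSC libraries, and Gkn2 at 1.11 to 31.7 TPM in Egfr KO PSC libraries and 5.54 to 17.4 TPM in Egfr WT PSC libraries. Their part in the Cldn18 values was not tested.

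The bases upstream of both Cldn18 start sites are shown because the quantification assigned reads to transcripts of both starts. Use of the starts themselves was not measured. The RefSeq windows (GRCm38.p6, minus strand) cover chr9:99717268-99717517 before the Cldn18.2 start and chr9:99710064-99710313 before the Cldn18.1 start, and the 5' ends of the first exons lie 7204 bases apart.
Cldn18.2 upstream window: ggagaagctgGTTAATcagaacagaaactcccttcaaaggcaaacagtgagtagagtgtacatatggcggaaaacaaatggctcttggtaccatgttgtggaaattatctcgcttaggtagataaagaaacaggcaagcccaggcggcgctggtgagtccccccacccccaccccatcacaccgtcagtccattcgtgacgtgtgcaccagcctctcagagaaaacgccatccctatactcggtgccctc
Cldn18.1 upstream window: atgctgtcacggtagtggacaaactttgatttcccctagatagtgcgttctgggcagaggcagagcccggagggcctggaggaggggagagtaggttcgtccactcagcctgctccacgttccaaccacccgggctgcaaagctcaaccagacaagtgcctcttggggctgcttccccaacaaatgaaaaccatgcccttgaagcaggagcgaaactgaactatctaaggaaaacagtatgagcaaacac
Capitals mark the only match to the 3 motifs searched on both strands, GTTAAT, part of the site bound by HNF1 factors, 240 bases before the Cldn18.2 start. The other motifs were TGANTCA, bound by AP-1 factors, and TATAAA, the TATA box. GTTAAT occurs in 6.43%, TGANTCA in 6.75% and TATAAA in 12.4% of the 32851 RefSeq windows of this kind. Among the other members with a RefSeq window, Muc1 had TATAAA 31 bases before its start, and both windows of Prom1 had TGANTCA, at 88 and 189 bases before their starts. Windows of Ceacam1 and Epcam held none of the 3. A match is a run of letters and not evidence of binding.

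Msln encodes mesothelin, a lipid-anchored glycoprotein of mesothelial surfaces that many pancreatic carcinomas carry and that has been targeted with antibody conjugates and engineered T cells. The gene lies at chr17:25748613-25754378 of GRCm38 (minus strand). It was the most abundant of the 7. Msln stood at 1446, 1069, 565, 864 and 2019 TPM in Egfr KO PSC libraries, against 876, 899, 996, 825 and 1007 TPM in Egfr WT PSC libraries. The Egfr WT PSC libraries were close together, and 3 of the Egfr KO PSC libraries lay above all of them and 1 below. The highest Egfr KO PSC library held 3.57 times the lowest, against 1.22 times among the Egfr WT PSC libraries; this difference in spread was not tested. For Msln the log2 fold change was 0.45 (SE 0.30, 95% confidence interval -0.20 to 1.11, edgeR adjusted p = 0.723), and without Egfr KO PSC library 5 it was 0.12.

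Mesothelial cells also carry Msln. Their other markers (8 of 8 found, among them Upk3b, Lrrn4, Wt1 and Nkain4) summed to between 2.44 and 6.46 TPM in Egfr KO PSC libraries and between 5.74 and 18.3 TPM in Egfr WT PSC libraries. Of the 8, 5 stayed below 1 TPM in all 10 libraries. Nkain4 was the largest on average, at 0.848 to 5.69 TPM in Egfr KO PSC libraries and 3.46 to 17.1 TPM in Egfr WT PSC libraries. Bnc1 was higher on average in Egfr KO PSC libraries (0.420 against 0.116 TPM), and the others were lower. The library of highest Msln, Egfr KO PSC library 5, had 6.46 TPM of these markers in sum, beside 2019 TPM of Msln, and their part in the group difference was not tested.

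Msln has annotated coding forms that differ by 12 bases at the start of an exon, and the stretch is shown because it changes the protein in frame. The bases lie at chr17:25753045-25753074 of GRCm38 on the minus strand, with the 12 bases of the longer form in capitals.
Msln alternative exon start: CCCTGTCCCCAGtctccccacaggcctctt
The shorter form dominated. Msln-208, with 1875 coding bases, carried 54.4 ± 1.64% of Msln TPM in Egfr KO PSC libraries and 53.9 ± 1.604% in Egfr WT PSC libraries (SD, n = 5 each; exact permutation test, p = 0.659, adjusted p = 0.857). Within the coding transcripts, the longer form (Msln-201 and Msln-205, 1887 coding bases) took 19.8%, 13.5%, 10.8%, 13.9% and 26.6% in Egfr KO PSC libraries, against 15.5%, 14.5%, 15.2%, 13.5% and 13.4% in Egfr WT PSC libraries. It was highest in Egfr KO PSC libraries 5 and 1, which were also the highest in Msln, and lowest in library 3, which was the lowest in Msln. This split was singled out after its values were seen and was not tested.

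Psca, prostate stem cell antigen, is a small lipid-anchored protein of gastric and urothelial surfaces that was a T cell target in PDAC; its name has no relation to the abbreviation PSC. The gene lies at chr15:74714839-74717069 of GRCm38 (plus strand). It was the least abundant of the 7 and the most variable within groups (89.4th percentile of the within-group SD of log2 CPM over all genes tested). Psca stood at 106, 37.0, 42.0, 25.9 and 63.8 TPM in Egfr KO PSC libraries, against 14.9, 25.7, 29.8, 34.1 and 56.4 TPM in Egfr WT PSC libraries. Libraries 1 and 5 of the Egfr KO PSC group were the highest of the 10 and Egfr WT PSC library 1 the lowest, and the ranges overlapped. The log2 fold change was 0.78 (SE 0.41, 95% confidence interval -0.11 to 1.67, edgeR adjusted p = 0.656), the largest positive value among the 7, and without Egfr KO PSC library 1 it was 0.41. Only 1 transcript was joined to Psca, Psca-201, with 369 coding bases, so its share was fixed by the annotation.

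Muc1 encodes the transmembrane mucin that lines ducts and whose underglycosylated form on carcinoma cells has been a vaccine and antibody target. The gene lies at chr3:89229057-89233381 of GRCm38 (plus strand). Muc1 stood at 712, 468, 328, 276 and 559 TPM in Egfr KO PSC libraries, against 1040.2, 540.1, 931, 694 and 515 TPM in Egfr WT PSC libraries. Of the Egfr KO PSC libraries, 3 lay below every Egfr WT PSC library, while libraries 1 and 5 lay within their range. The means were 468 ± 176 TPM in Egfr KO PSC libraries and 744 ± 234 TPM in Egfr WT PSC libraries (SD, n = 5 each). The log2 fold change was -0.63 (SE 0.30, 95% confidence interval -1.28 to 0.02), the largest negative value among the 7, with an edgeR p of 0.0577 and an adjusted p of 0.632. DESeq2 gave unadjusted p-values of 0.0424 for Muc1 and 0.0487 for Psca, with adjusted p-values of 0.493 and 0.515.

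Muc1-201, the full-length transcript with 1893 coding bases, carried 93.1 ± 5.59% of Muc1 TPM in Egfr KO PSC libraries and 94.2 ± 5.63% in Egfr WT PSC libraries (exact permutation test, p = 0.706, adjusted p = 0.857). The lowest shares, 84.0% in Egfr KO PSC library 3 and 84.6% in Egfr WT PSC library 5, were those of the libraries with most Muc1-202, a noncoding transcript. Muc1-202 was at 44.6 TPM in Egfr KO PSC library 3 and 68.5 TPM in Egfr WT PSC library 5, and at 0 in 3 other libraries.

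Prom1 encodes prominin-1 (CD133), a pentaspan protein of membrane protrusions that is used as a marker of tumour-initiating cells. The gene lies at chr5:43993620-44102032 of GRCm38 (minus strand). It varied widely within both groups, at the 87.6th percentile of the within-group SD. Prom1 stood at 612, 639.7, 212, 233 and 481 TPM in Egfr KO PSC libraries, against 826, 469, 891, 663 and 353 TPM in Egfr WT PSC libraries. Libraries 3 and 4 of the Egfr KO PSC group were the lowest of the 10 and Egfr WT PSC libraries 3 and 1 the highest. For Prom1 the log2 fold change was -0.51 (SE 0.36, 95% confidence interval -1.31 to 0.28, edgeR adjusted p = 0.740). Of its 7175 exonic bases, 424 are shared with the antisense gene Gm16401, which was listed at 0.669 to 2.70 TPM, and the labels do not say whether strand was used. No exon of the other 6 antigens overlaps another annotated gene.

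The main transcript of Prom1, Prom1-203, holds a pair of coding exons that Prom1-207 lacks, shown here with their GRCm38 positions on the minus strand, chr5:44001270-44001293 and chr5:44000777-44000845.
Prom1 exon of 24 bases: tgttgagactgtgcccatgaaaaa
Prom1 exon of 69 bases: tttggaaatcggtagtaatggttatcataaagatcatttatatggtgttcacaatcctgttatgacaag
Prom1-203 carried 57.9%, 68.1%, 60.3%, 67.5% and 46.9% of Prom1 TPM in Egfr KO PSC libraries, against 72.1%, 65.0%, 71.2%, 70.7% and 57.8% in Egfr WT PSC libraries. The mean difference was -7.22 percentage points (60.1 ± 8.62% in Egfr KO PSC libraries and 67.4 ± 5.99% in Egfr WT PSC libraries; exact permutation test, p = 0.143, adjusted p = 0.738), with overlapping groups. With a library left out it ranged from -9.60 to -3.91 percentage points, the latter without Egfr KO PSC library 5. Prom1-211, with 187 coding bases, took 16.4% in Egfr KO PSC library 3 and 21.3% in Egfr WT PSC library 5, and at most 9.40% in the others. Those were also the libraries with most Muc1-202. Prom1-211 falls outside the rule for named transcripts, and its share was not tested. Prom1-207 took 18.21%, 6.59%, 6.81%, 9.21% and 29.5% in Egfr KO PSC libraries, against 6.33%, 9.16%, 6.30%, 6.74% and 6.57% in Egfr WT PSC libraries. Its share was high in Egfr KO PSC libraries 1 and 5, the same libraries in which the longer Msln form was high. It was singled out after its values were seen and not tested as a share. As a transcript, Prom1-207 had a log2 fold change of 0.63 (95% confidence interval -0.65 to 1.92), which was 0.11 without Egfr KO PSC library 5 and 0.40 without Egfr KO PSC library 1.

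**Figure D3:**
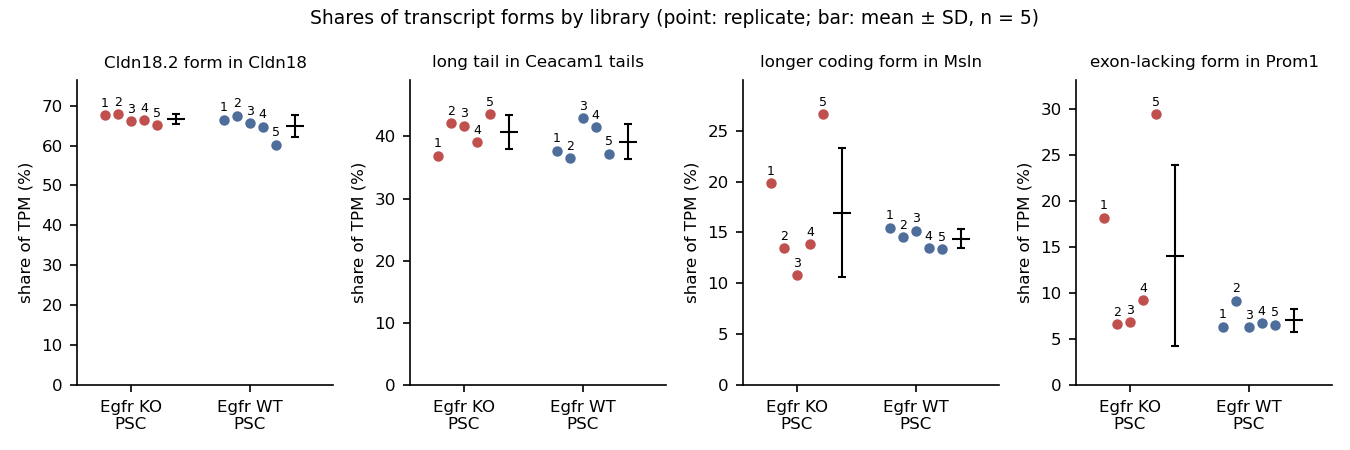
Share of TPM (vertical axis, percent) taken by the Cldn18.2 form in Cldn18, the long-tail form among tailed Ceacam1 transcripts, the longer form among coding Msln transcripts, and Prom1-207 (without the pair of cassette exons) in Prom1, in Egfr KO PSC libraries (left) and Egfr WT PSC libraries (right), with points numbered by library and bars at the mean ± SD (n = 5). The Cldn18.2 share stays between 60.3% and 67.9%, while the Msln and Prom1 shares reach 26.6% and 29.5% in Egfr KO PSC library 5.

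Epcam encodes the epithelial cell adhesion molecule, a general carcinoma antigen that is also commonly used to sort epithelial cells. The labels do not name the markers of this sort. The gene lies at chr17:87635979-87651129 of GRCm38 (plus strand). Epcam stood at 228, 201.0, 253, 203 and 163 TPM in Egfr KO PSC libraries, against 116, 195, 244, 214 and 292 TPM in Egfr WT PSC libraries. The Egfr WT PSC libraries held both the lowest and the highest value. Its log2 fold change was -0.0034 (SE 0.21, 95% confidence interval -0.46 to 0.46, edgeR adjusted p = 0.998), and DESeq2 gave 0.0055. Epcam-204 carried 96.3 ± 0.691% of Epcam TPM in Egfr KO PSC libraries and 96.1 ± 1.49% in Egfr WT PSC libraries (exact permutation test, p = 0.714, adjusted p = 0.857).

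Ceacam1 encodes a carcinoembryonic antigen-related adhesion molecule that binds itself across cells and, in its long-tailed form, carries inhibitory signalling motifs. The gene lies at chr7:25461707-25477603 of GRCm38 (minus strand). Ceacam1 stood at 164, 161, 186, 123 and 221 TPM in Egfr KO PSC libraries, against 128, 130.1, 206, 197 and 88.2 TPM in Egfr WT PSC libraries. The groups overlapped, with Egfr KO PSC library 5 the highest and Egfr WT PSC library 5 the lowest. The log2 fold change was 0.23 (SE 0.20, 95% confidence interval -0.21 to 0.66, edgeR adjusted p = 0.796), and limma voom with sample weights gave -0.03. Ceacam2, a near copy whose reads could be exchanged with those of Ceacam1, was at 0.709 ± 0.568 TPM in Egfr KO PSC libraries and 0.786 ± 0.222 TPM in Egfr WT PSC libraries.

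The Ceacam1 tail is set by a 53-base exon at chr7:25465468-25465520 of GRCm38 (minus strand), present in the long-tail transcripts Ceacam1-202 and Ceacam1-203.
Ceacam1 tail exon: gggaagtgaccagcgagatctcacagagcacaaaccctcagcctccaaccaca
Short tails were the more common. Among the coding transcripts assigned to either tail, long tails made up 36.9%, 42.2%, 41.7%, 39.1% and 43.6% in Egfr KO PSC libraries, against 37.7%, 36.5%, 42.9%, 41.5% and 37.2% in Egfr WT PSC libraries. Transcripts with 4 immunoglobulin domains and those with 2 were nearly equal, with 4-domain transcripts at 49.7 ± 0.966% of their sum in Egfr KO PSC libraries and 48.6 ± 3.51% in Egfr WT PSC libraries. The leading transcript, Ceacam1-202, carried 29.5 ± 2.83% of Ceacam1 TPM in Egfr KO PSC libraries and 29.2 ± 2.88% in Egfr WT PSC libraries (exact permutation test, p = 0.873, adjusted p = 0.873).

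At the level of transcripts, 49 of the 52 were above 0 in at least 1 library and 43 passed the filter. None of the 43 passed an adjusted p of 0.05 in edgeR, where 0 of the 47478 transcripts tested (0%) did, and DESeq2 also called 0 of them, against 146 transcripts (0.308%). At an unadjusted p below 0.05, edgeR called 1 of the 43, against 2414 transcripts (5.08%). That transcript was Ceacam1-207, annotated as a target of nonsense-mediated decay, at 3.66 ± 1.199 TPM in Egfr KO PSC libraries and 1.73 ± 0.732 TPM in Egfr WT PSC libraries, with a log2 fold change of 1.10 (edgeR adjusted p = 0.979); it falls outside the rule for named transcripts. Reads shared by overlapping transcripts were divided by the quantification, and the uncertainty of that division was not at hand.

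Across the 10 libraries the antigens did not move as a block. Muc1 and Prom1 followed each other most closely (Pearson r of log2 CPM 0.92, n = 10 libraries), with both low in Egfr KO PSC libraries 3 and 4 and both high in Egfr WT PSC libraries 1 and 3. Msln and Cldn18 had r = 0.70 and were both highest in Egfr KO PSC library 5 and lowest in Egfr KO PSC library 3. Epcam ran against Prom1 (r = -0.47) and Muc1 (r = -0.45). These values describe libraries that share their scaling and carry no test.

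**Figure D4:**
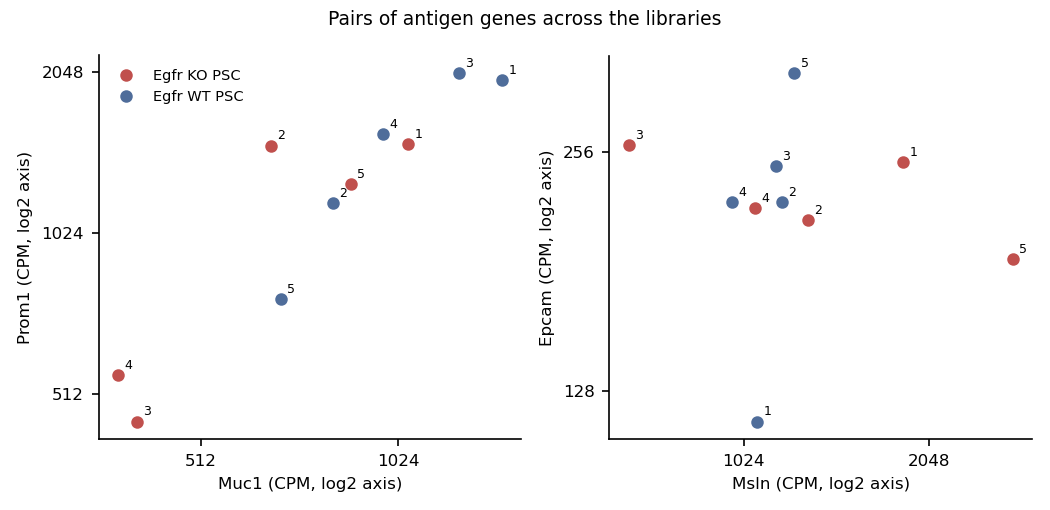
CPM (log2 axes) of Prom1 against Muc1 (left) and of Epcam against Msln (right) in the 5 Egfr KO PSC and 5 Egfr WT PSC libraries, numbered by library. Prom1 follows Muc1 (r = 0.92), while Epcam shows little relation to Msln (r = -0.12).

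Candidates for likeness were 10062 genes averaging 5 CPM or more, without genes whose symbol is a Gm number or a Rik name. The candidates whose log2 CPM most resembled each antigen over the 10 libraries differed from antigen to antigen. They were Rtf2 (r = 0.985), Clca3a1 (0.976) and Stoml1 (0.971) for Msln, and Pepd (0.985), Smpd3 (0.983) and Gmds (0.976) for Muc1. For Prom1 they were Sgpp2 (0.977), Tmprss2 (0.966) and Hid1 (0.961), and for Cldn18 Gna11 (0.944), Ercc3 (0.940) and Morf4l1 (0.931). For Epcam they were Zfand3 (0.937), Lemd2 (0.937) and Srrm2 (0.931), for Ceacam1 Slc25a10 (0.938), Nrf1 (0.871) and Amd-ps3 (0.863), and for Psca Vamp8 (0.910), Srrm1 (0.893) and Fam76b (0.885). These are the top of a ranking and carry no test.

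Set beside other surface antigens studied in carcinoma, the 7 were neither uniformly higher nor lower in Egfr KO PSC libraries. Of the 33 tested genes of that list, 19 had a positive and 14 a negative log2 fold change, with a median of 0.094, against 0.00041 over all genes. None passed in edgeR at an adjusted p of 0.05. At an unadjusted p below 0.05 edgeR called 5 of the 33, against 8.15% of all genes, counting either direction. All 5 were higher in Egfr KO PSC libraries, and the share of all genes called in that direction alone was not computed. DESeq2 called 1 of the 33 at an adjusted p below 0.05, against 127 of all genes (0.726%). That gene was Muc16, the CA125 antigen to which mesothelin binds. It was at 0.996 ± 0.611 TPM in Egfr KO PSC libraries and 0.210 ± 0.216 TPM in Egfr WT PSC libraries (SD, n = 5 each). Its log2 fold change was 2.04 in edgeR (adjusted p = 0.440), and DESeq2 gave an adjusted p of 0.0431. Its estimated counts ran from 14 to 280 per library, far below those of Msln, which ran from 28762 to 120153. Cldn6, an embryonic claudin, was at 623 ± 101 TPM in Egfr KO PSC libraries and 413 ± 127 TPM in Egfr WT PSC libraries (log2 fold change 0.61, edgeR adjusted p = 0.472). Lypd3 (13.1 and 8.24 TPM in Egfr KO PSC and Egfr WT PSC libraries) and Prom2, the paralog of Prom1 (8.49 and 5.10 TPM), had log2 fold changes of 0.68 and 0.72. The value for Prom2 was 0.35 without Egfr KO PSC library 3, in which it was highest, and 0.34 with limma voom. Among the most abundant were Ly6e, a lipid-anchored relative of Psca, at 4313 TPM in Egfr KO PSC libraries and 3709 TPM in Egfr WT PSC libraries, and Cldn4, a tight junction claudin, at 1553 TPM in Egfr KO PSC libraries and 1693 TPM in Egfr WT PSC libraries. Both exceeded Msln on average. Tspan8, a tetraspanin, was at 339 TPM in Egfr KO PSC libraries and 390 TPM in Egfr WT PSC libraries.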

How the data were processed

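RNA from sorted tumour epithelial cells of 10 libraries, 5 per group, was made into cDNA libraries with a low-input kit whose PCR cycles depended on the input, per the labels' protocols. The authors deposited a transcript quantification per library, and Salmon 1.9.0 and GRCm39 are named in the submitters' processing notes, without an annotation release. As deposited, the estimated counts per transcript are not normalised, the deposited TPM values are corrected for length and depth, and the deposited effective lengths are those the quantification used.

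Transcripts were joined to genes by identifier without version, with GENCODE M21 (GRCm38). Of 147828 transcripts, 137063 (92.7%) matched, with 98.1% to 98.7% of the estimated counts; the other 10765 were left out. Estimated counts were summed per gene, rounded and fitted with edgeR 4.0.16 in R 4.3.3 (quasi-likelihood F test, TMM, minimum count 10, 10 libraries, no covariate), with Benjamini-Hochberg adjustment over 17495 genes and a threshold of 0.05; transcripts were fitted likewise over 47478 transcripts. DESeq2 1.42.0 and limma 3.58.1 (voom with sample weights) served as alternatives, as did no filter, other scalings, log2 TPM with pseudocounts of 1 and 0.1, and each library left out. The fit was tested on simulated data. Standard errors and 95% intervals come from the F statistic. Shares of TPM were compared with a two-sided exact permutation test over the 252 assignments of 5 against 5 libraries, adjusted over 6 shares.

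Estimated counts carry counting error and an assignment error that was not modelled. No pair of libraries agreed within sampling noise (lowest chi-square per degree of freedom 38.9). Named transcripts held at least 10% of a gene's TPM in either group, and from the list of other antigens the 4 of lowest p and the 4 of highest TPM were named. The 7 genes and the lists were chosen with earlier results of these data known. Promoter windows and motif shares come from RefSeq sequences of GRCm38.p6.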

Additional observations from a re-analysis of the deposited data

How the results depend on the processing

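No antigen passed an adjusted p of 0.05 in any of 18 gene-level alternatives, and no antigen transcript in any of 12 transcript-level ones. No paired analysis was possible because the labels give no number that pairs libraries. A number in the file names, with levels that both groups hold, entered the gene-level edgeR fit as a factor, and 0 genes passed. Over all genes, the count past the threshold was 127 with DESeq2, 3 with limma voom, 1 with no filter on low counts (Ifi27), and 2 and 1 with limma on log2 TPM at pseudocounts of 1 and 0.1; with a library left out it ran from 0 to 4. Over all transcripts it was 146 with DESeq2 and ran from 0 to 2 with a library left out. Leaving out each library in turn gave log2 fold changes of 0.12 to 0.65 for Msln, -0.85 to -0.47 for Muc1, 0.11 to 0.33 for Ceacam1, -0.68 to -0.31 for Prom1 and 0.41 to 1.10 for Psca, which kept their signs, and of -0.17 to 0.16 for Epcam and -0.34 to 0.10 for Cldn18, which did not. Ceacam1 was -0.028 with voom. Epcam was 0.0055 with DESeq2, 0.037 with voom, 0.0303 and 0.0307 with log2 TPM at pseudocounts of 1 and 0.1, and 0.091 with that factor. Other values whose sign changed when a library was left out ranged from -0.18 to 0.018 for Cldn4, -0.22 to 0.13 for Ceacam1-209, -0.43 to 0.021 for Cldn18-201, -0.22 to 0.12 for Cldn18-202, -0.39 to 0.10 for Cldn18-203, -0.18 to 0.15 for Epcam-204 and -0.061 to 0.11 for Msln-207. Differences in share, in percentage points, ranged from -3.50 to 1.153 for Muc1-201, -0.75 to 1.197 for Ceacam1-202 and -0.26 to 0.79 for Epcam-204. Muc16 was past the threshold with DESeq2 (log2 fold change 2.05) and in no other alternative. In CPM, which unlike TPM is not corrected for transcript length, Prom1 ranked 2 and Muc1 3, and Ceacam1 5 and Epcam 6. The causes were not tested. In all, 589 of 647 recomputed values were labelled unchanged. For fold changes and differences in share this means the same direction and side of the threshold. For ranks it means the same rank, and for counts past the threshold the same count. No fold change or difference in share followed here was past the threshold in the main fit. Depth limits Psca most, the least abundant antigen, with 302 estimated counts in its lowest library.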
